A study of Homo sapiens with 3 samples.

Results

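The CD-numbered surface molecules are the genes whose annotated symbol is CD, a number and optional letters, such as CD37, CD53 and CD83. CD27, CD40, CD40LG, CD68, CD70, CD74, CD2AP and CD3EAP were left out. The rule took 73 genes with 91 probes, of 19367 genes with 24303 named probes on the array. They were measured in L428tetPU.1 cells on the day of tetracycline removal (day 0) and at day 1 and day 3, which derive from L428, an established line of classical Hodgkin lymphoma, and hold a PU.1 gene that stays off while tetracycline is present. The medium held 500 ng/ml of the drug until its removal. By the name of the line, the day 0 cells carry the same PU.1 construct as the others. Day 0 differs from the later days in the drug and in time as well as in the intended induction. No array here is of cells without the construct, so these cannot be told apart. Each day had 1 Illumina bead array of total RNA. The design text names 4 independent experiments for each RNA sample, and the sources used here do not say whether their RNA was combined. No value below has a replicate error, and no test between days was possible.

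CD numbers are given to leukocyte surface proteins that sets of antibodies recognise, so the members share a place on the cell and no single function. Among them are tetraspanins, which gather other membrane proteins into patches, receptors and ligands by which lymphocytes and antigen-presenting cells address each other, and proteins that shield cells from complement. PU.1, encoded by SPI1, is an ETS family transcription factor of myeloid and B cells, and many surface receptor genes of those lineages are known targets. Hodgkin and Reed-Sternberg cells are B cells by origin that have lost much of the B cell surface.

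A probe was above background where its deposited detection p-value was under 0.01. The 3 arrays were alike in depth, with 22.3% to 23.2% of 48701 probes above background and median intensities between 35.9 and 36.8. All 7 markers of Reed-Sternberg cells that were looked up, TNFRSF8, FUT4, FSCN1, IRF4, TRAF1, CCL17 and CCL22, were above background on all 3 arrays. The named SPI1 probe was above background on no array, with intensities of 40.8 at day 0, 35.3 at day 1 and 38.9 at day 3, so the induction itself has no measured value here. A change below is a difference of normalized log2 signals. A gene was called higher or lower where it changed by at least 2-fold, or 1 on the log2 scale, and the words rose and fell are kept for such genes. Where the probe was above background on 1 array of a pair, the brighter array was set against the lowest signal above background on the dimmer array, or the dim probe's own where that was higher. That bound had to reach 2-fold as well and is written as at least N-fold. Of the 7 Reed-Sternberg markers CCL22 rose at day 1, CCL17, CCL22 and TRAF1 rose at day 3, and 0 fell against day 0. Over all genes above background on both arrays, 8.64% were higher and 8.4% lower at day 1, and 4.32% and 2.25% at day 3. For so few genes, 1 rise at day 1 is near that share. In RNA from a whole culture, fewer cells of a type and less RNA per cell cannot be told apart.

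Promoters are shown first, because the induced factor binds DNA with a GGAA core. RefSeq promoter windows on GRCh38.p14, 250 bases before to 50 after the start site, matched 52 of the 73 members and 7 of the 9 that passed the size rule in any comparison. The windows of CD53, which had the widest change of all members, of CD86, which holds several copies of the PU box, and of CD83, which holds GGAAGT, are printed with GGAA or its reverse complement TTCC in capitals. Matches that touch or overlap run together. CD53 lies at chr1:110870960-110871259 on the plus strand, CD86 at chr3:122055112-122055411 on the plus strand and CD83 at chr6:14117006-14117305 on the plus strand.
CD53: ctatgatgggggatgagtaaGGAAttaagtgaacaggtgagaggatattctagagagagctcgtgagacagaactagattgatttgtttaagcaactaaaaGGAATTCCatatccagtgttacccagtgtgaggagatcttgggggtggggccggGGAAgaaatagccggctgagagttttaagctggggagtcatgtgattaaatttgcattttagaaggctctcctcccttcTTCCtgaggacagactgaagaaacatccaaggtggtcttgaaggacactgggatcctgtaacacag
CD86: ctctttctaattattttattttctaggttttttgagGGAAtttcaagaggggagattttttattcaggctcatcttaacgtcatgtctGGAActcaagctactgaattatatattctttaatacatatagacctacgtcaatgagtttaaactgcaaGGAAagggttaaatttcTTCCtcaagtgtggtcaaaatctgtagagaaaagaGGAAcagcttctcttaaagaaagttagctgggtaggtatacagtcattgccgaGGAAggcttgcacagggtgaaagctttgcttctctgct
CD83: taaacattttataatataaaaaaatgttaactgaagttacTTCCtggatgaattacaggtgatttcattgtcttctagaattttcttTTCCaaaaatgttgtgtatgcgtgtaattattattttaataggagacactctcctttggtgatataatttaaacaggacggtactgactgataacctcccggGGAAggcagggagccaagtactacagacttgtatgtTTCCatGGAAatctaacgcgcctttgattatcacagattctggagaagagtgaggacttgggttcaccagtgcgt
The core alone separates nothing, since 95.5% of 27305 promoter windows hold GGAA on either strand, and so did all 52 of the members. The longer word GAGGAAGT, searched on both strands, was in 2.54% of all windows and in 0 of the 7 windows of members that passed the size rule. The PU box GAGGAA, added to the search after the sequences were seen, was in 27.6% of all windows and in 1 of those 7. That was CD86, with matches that begin 76 and 43 bases before and 10 bases after the start site. Over all 52 member windows the PU box was in 23. Of these, 7 were among the 16 of members above background that did not pass the rule. Most, 15, were among the 29 of members above background on no array. GGAAGT was in 23.2% of all windows and in 1 of the 7, that of CD83. It was in 20 of the 52 member windows, in 7 of the same 16 and in 12 of the same 29. Each longer word holds the GGAA core, and GAGGAAGT holds the PU box and GGAAGT, so the searches overlap. A match is a stretch of letters, not a bound site, and a word that is missing from a window says nothing of the factor.

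Of the 73 members, 29 were above background on at least 1 array, or 39.7%, against 49.1% of all named genes. Day 0 had 20 of them above background, day 1 had 25 and day 3 had 23, and 15 were above on all 3 arrays. For 11 of the 29 the brightest array was under 1.5 times its lowest intensity above background, so their values sit at the edge of detection. Of the receptors of T and NK cells, 16 of 16 were above background on no array. CD2 at day 1 and CD8A at day 3 came nearest, with detection p-values of 0.01601 and 0.01819. CD3D, CD3E and CD3G, chains of the T cell receptor complex, and CD2, CD4, CD8A and CD28 were among the 16. The intensities of the group ran from 25.0 to 61.2. A probe needed an intensity of 70.4 to be above background at day 0, of 64.5 at day 1 and of 67.0 at day 3. Of the 15 myeloid receptors 14 were above background on no array, among them CD14, the lipopolysaccharide co-receptor of monocytes, the haemoglobin scavenger receptor CD163 and the lectin CD209. The 15th, CD300LF, an inhibitory receptor, was just above at log2 signals of 5.81, 5.82 and 5.62 at day 0, day 1 and day 3. Of the 5 B cell receptor and co-receptor genes 4 were above background on no array. These were CD79A and CD79B, which carry the signal of the B cell receptor, the inhibitory lectin CD22 and CD180. CD79B came nearest, with an intensity of 66.5 and a detection p-value of 0.01383 at day 0. No difference was detectable for these genes at this signal, which is not evidence that they were off. CD9, CD48, CD274, CD276, CD34, CD248, CD38, CD52, CD1A and CD1B were likewise above background on no array.

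**Figure D1:**
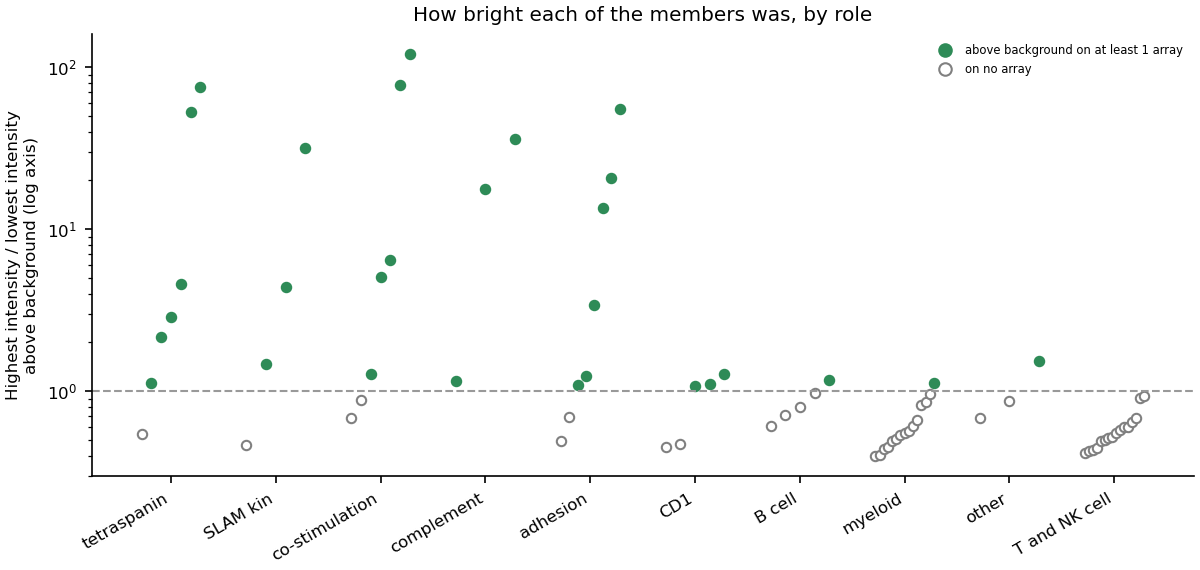
Highest intensity of each of the 73 members over the 3 arrays, divided by the lowest intensity above background on the same array (log axis), by role. Green points were above background on at least 1 array and open grey points on none. All 16 T and NK cell receptors and 14 of 15 myeloid receptors lie below the dashed line at 1. The height gives the distance from the detection limit, and probes of different genes cannot be ranked by it.

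At day 1, 8 members rose and 0 fell, of 28 measured. Those that rose were the tetraspanins CD53 and CD37, the SLAM family receptor CD244, the activation and co-stimulation genes CD69, CD80, CD83 and CD86, and the complement regulator CD55. The 8 were 28.6% of the measured members, where 9.19% of 9311 measured genes were higher and 7.98% lower. A gene seen at day 1 and not at day 0 could only differ upwards. Among genes above background on both arrays, 6 of 17 members rose and 0 fell, where 8.64% of 8198 genes were higher and 8.4% lower. The median change of the 28 was 0.43 on the log2 scale, where that of all measured genes was -0.05. Over the 17 above background on both arrays it was 0.22, where that of all such genes was -0.09. By 75th percentile scaling in place of quantile normalization the share of higher genes among those called over the array was 42%, against 53.5%, and that of the authors' deposited log2 values was 42.9%.

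At day 3, 7 members rose against day 0 and 0 fell, of 27 measured. CD53, CD37, CD69, CD80, CD83 and CD55 had risen at day 1 too, CD82 had not, and CD244 and CD86 were no longer past the size rule. Both comparisons use the same day 0 array. The 7 were 25.9% of the measured members, where 4.95% of 9190 measured genes were higher and 2.13% lower. Among genes above background on both arrays, 4 of 16 members rose and 0 fell, where 4.32% of 8312 genes were higher and 2.25% lower. The median change of the 27 was 0.42, where that of all measured genes was -0.06, and over the 16 above background on both arrays it was also 0.42, where that of all such genes was -0.08. The share of higher genes among those called was 69.9%, and 50.7% by 75th percentile scaling and 54.9% in the authors' deposited log2 values. Between day 3 and day 1, 0 members rose and 1, CD244, fell, of 27 measured, where 3.54% of 9318 genes were higher and 3.92% lower. Over genes above background on both of these arrays, CD244 was 1 of 21 members, where 3.63% of 8489 genes were higher and 3.97% lower. The error between probes of the same gene gives a scale for these values. Over 416 genes with exactly 2 probes above background on all arrays, the SD of a change was 0.36 at day 1 and 0.29 at day 3 against day 0, and 0.31 at day 3 against day 1. Variation from culture to culture or extract to extract is not part of it.

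**Figure D2:**
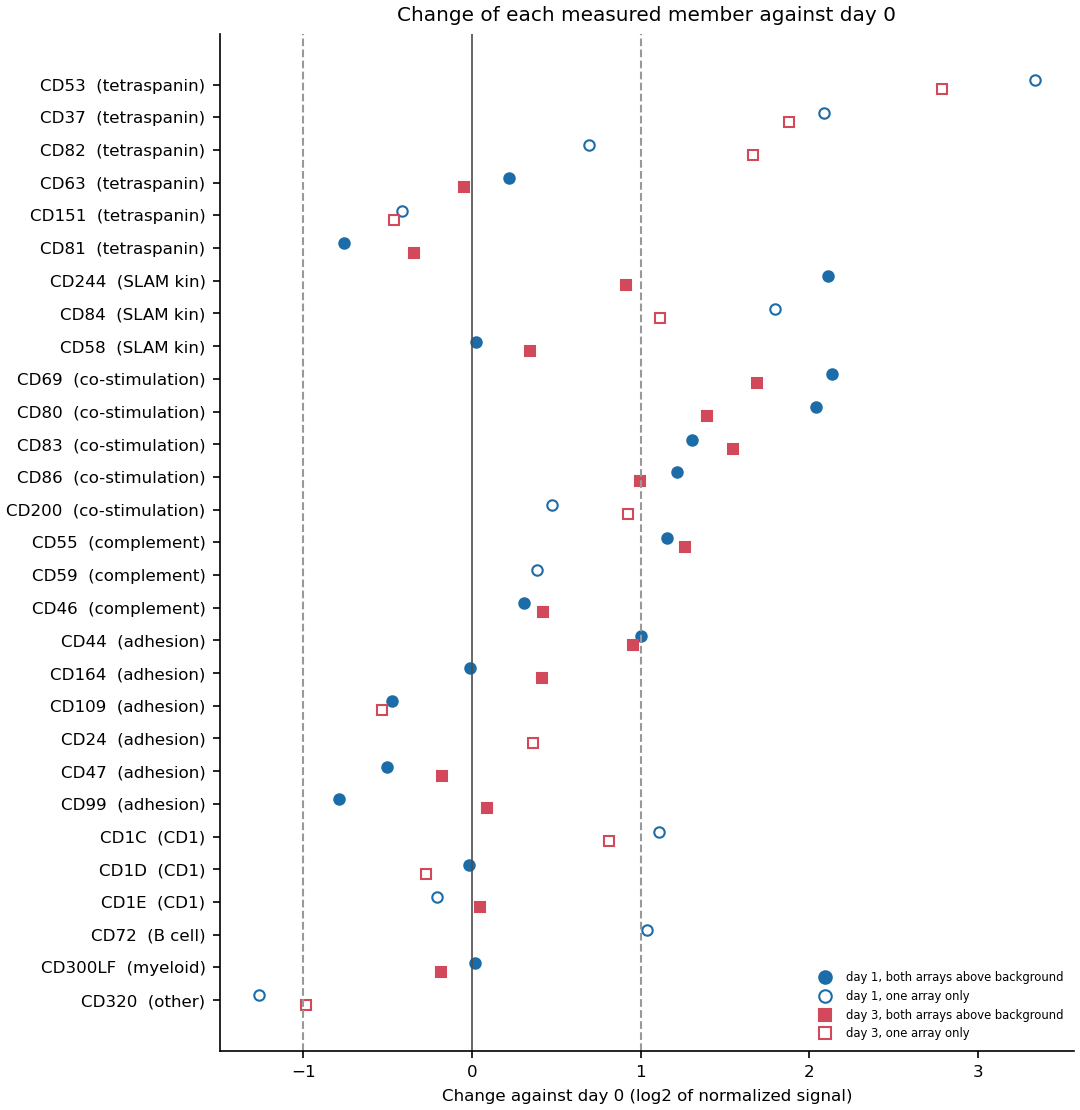
Change of the 29 members above background on at least 1 array, as the log2 difference from day 0, at day 1 (blue circles) and day 3 (red squares), by role. Open symbols mark pairs with 1 array above background, and dashed lines mark the size rule at 1 and -1. The 4 co-stimulation genes CD69, CD80, CD83 and CD86 lie at or right of the upper line on both days, with CD86 just short of it at day 3, and CD320 lies farthest left.

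Of 7 tetraspanins 6 were measured. CD53 and CD37 rose on both days and CD82 at day 3, while CD63, CD81 and CD151 did not pass the rule. The genes that rose were below the detection limit at day 0, so they could only differ upwards from it. CD53, a tetraspanin found on leukocytes, had log2 signals of 4.85 at day 0, 8.18 at day 1 and 7.64 at day 3, and was not above background at day 0. It was at least 5.50-fold higher at day 1 and at least 3.76-fold higher at day 3. CD37, a tetraspanin of B cells and other leukocytes, had signals of 5.37, 7.46 and 7.25 at day 0, day 1 and day 3, and was also below the detection limit at day 0. It was at least 3.32-fold higher at day 1 and at least 2.87-fold higher at day 3. Neither passed the rule between day 3 and day 1, with differences of -0.55 for CD53 and -0.21 for CD37. CD82, known as a suppressor of metastasis, had signals of 5.33, 6.02 and 7.0 over the same days. It was at least 2.41-fold higher at day 3, while at day 1 its bound was 1.23-fold. Its second probe had 5.52, 5.80 and 5.69, so the probes of CD82 disagreed. CD63, a tetraspanin of late endosomes, had 11.57, 11.79 and 11.53 and changed by 0.22 at day 1 and -0.04 at day 3. CD81, a widely expressed tetraspanin, had 12.29, 11.53 and 11.95, a change of -0.76 at day 1 and -0.34 at day 3. CD151, which binds integrins, was above background at day 0 and on no later array, at 5.95, 5.53 and 5.49.

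Of 22 tetraspanins named TSPAN, 13 were measured at day 1. TSPAN31 rose and TSPAN13 fell, with a median of -0.02, and at day 3 TSPAN31 rose and 0 fell, with a median of -0.10. TSPAN13 had signals of 8.30 at day 0, 6.66 at day 1 and 7.98 at day 3, and it rose between day 1 and day 3. Of 8 genes for partners of tetraspanins, 4 were measured, and IFITM1, an interferon-induced membrane protein that associates with CD81, rose on both days. Its signals were 8.29, 9.78 and 10.30 at day 0, day 1 and day 3. ADAM10, ITGA4 and ITGB1 did not pass the rule, and the median change of the 4 was -0.26 at day 1 and -0.02 at day 3.

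**Figure D3:**
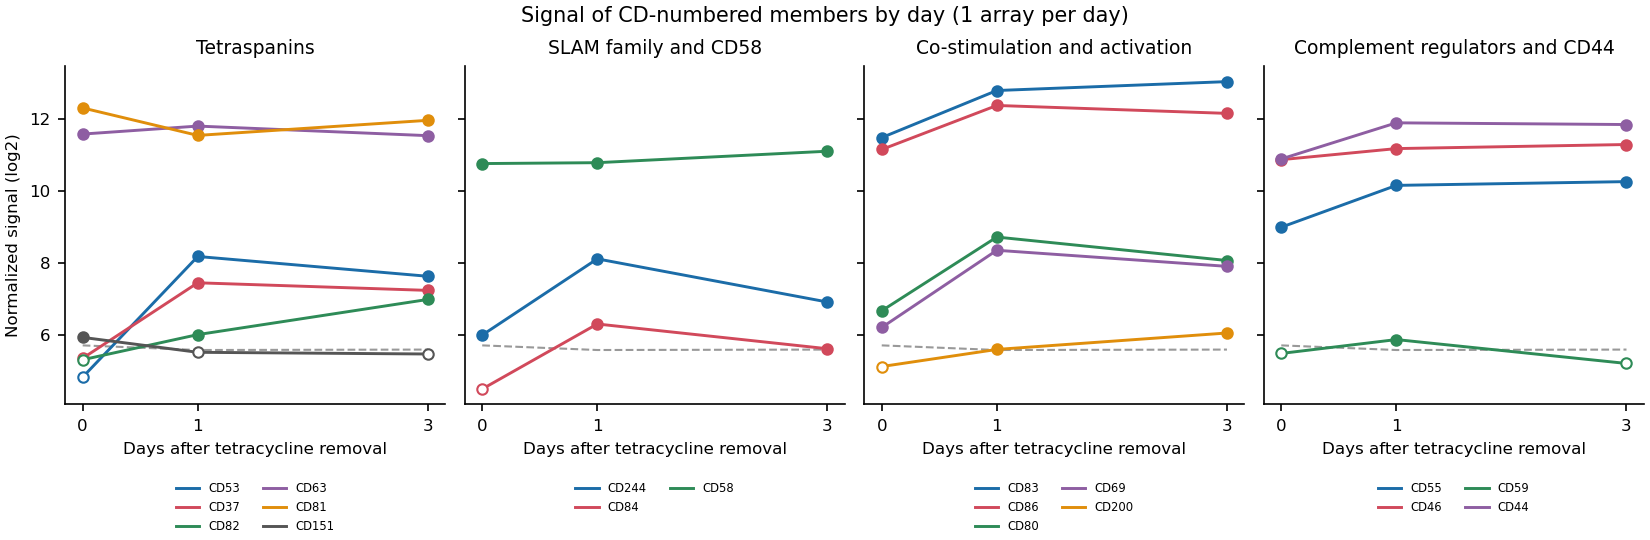
Normalized log2 signal of members at day 0, day 1 and day 3, with 1 array per day, in 4 panels by role. Filled points were above background and open points were not, and the dashed line is the lowest signal above background on each array. CD53 and CD37 rise out of the background at day 1, CD244 peaks at day 1, and CD83, CD86, CD55 and CD44 move from levels that were already well above the line. Lines compare days within a gene, and their heights do not rank the genes.

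The SLAM family are receptors by which lymphocytes and NK cells recognise each other, and many bind a copy of themselves. CD244, a receptor for CD48, had signals of 6.01 at day 0, 8.12 at day 1 and 6.92 at day 3. It was above background on every array and rose 4.32-fold at day 1, rank 115 of 8198 genes above background on both arrays. It then fell 2.29-fold from day 1 to day 3, to a level 0.92 above day 0 on the log2 scale. CD84, which binds itself, had 4.52, 6.32 and 5.63 and came above background at day 1. Its difference from day 0 was 1.80, but the bound was 1.51-fold, so it did not pass. CD58, the ligand of CD2, had 10.75, 10.78 and 11.10 and changed by 0.02 at day 1 and 0.34 at day 3. CD48, the ligand of CD244, was above background on no array. CD84, SLAMF1, CD48, SLAMF7, LY9 and CD244 lie in that order in the RefSeq annotation of GRCh38.p14, with 1 further locus among them. Of these SLAMF1 and CD244 rose at day 1, and CD48, SLAMF7 and LY9 were above background on no array. SLAMF1, itself a receptor that binds a copy of itself, had 4.65, 8.11 and 7.86 at day 0, day 1 and day 3. Among 8 SLAM genes named otherwise and adaptors, 4 were measured at day 1. Of these SLAMF1 and SLAMF8 rose and 0 fell, where 9.19% of all measured genes were higher and 7.98% lower. Both were below the detection limit at day 0, so they could only differ upwards from it. Of the 2 above background on both arrays, SH2D1A and SH2D1B, 0 rose and 0 fell, with a median change of -0.17. SLAMF8 had 4.78, 7.13 and 5.85, and fell from day 1 to day 3 as CD244 did. The adaptor genes SH2D1A and SH2D1B, which pass on SLAM signals, had 10.83, 10.16 and 10.04 and 11.20, 11.54 and 11.16 over the same days and did not pass the rule.

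Genes of T cell co-stimulation and activation were the role with the most rises at day 1, 4 of 5 measured, against 2 of 6 for the tetraspanins. At day 3 each of these roles had 3, of the same numbers measured. Each tetraspanin that rose was below the detection limit at day 0, so it could only differ upwards from it. Of the 2 tetraspanins above background on both arrays 0 rose at day 1 and 0 at day 3. For the co-stimulation genes this was 4 of 4 at day 1 and 3 of 4 at day 3. Over all measured genes 9.19% were higher at day 1 and 4.95% at day 3. The roles were set with earlier results of these data known, so their order is a description only. CD80, a ligand of CD28 and CTLA4, had signals of 6.68 at day 0, 8.72 at day 1 and 8.07 at day 3, a rise of 4.11-fold at day 1 and 2.62-fold at day 3. CD86, the other ligand of the same receptors, had 11.14, 12.36 and 12.14 on its brightest probe and rose 2.33-fold at day 1. At day 3 its change was 1.00 after rounding and just short of the rule. CD83, a marker of mature dendritic cells, had 11.47, 12.78 and 13.02, a rise of 2.47-fold at day 1 and 2.93-fold at day 3. CD69, a lectin that appears early on activated lymphocytes, had 6.22, 8.36 and 7.91, a rise of 4.40-fold at day 1 and 3.23-fold at day 3. All 4 genes were above background on all 3 arrays, so their folds do not rest on a bound. CD200, a ligand that restrains myeloid cells, had 5.14, 5.61 and 6.07, and was not above background at day 0. Its bound was 1.27-fold at day 3, and at day 1 it gave no fold above 1, so it did not pass. Its second probe was above background on no array. CD274, the PD-1 ligand, was above background on no array, with intensities of 29.1, 57.2 and 56.4 at day 0, day 1 and day 3 and detection p-values of 0.60990, 0.02038 and 0.02329. CD28, the receptor for CD80 and CD86, was above background on no array.

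All 3 complement regulators were measured at day 1 and 2 of them at day 3 against day 0, and they differed in their change. CD55, which speeds the decay of complement convertases, had 8.99 at day 0, 10.15 at day 1 and 10.26 at day 3, a rise of 2.23-fold at day 1 and 2.40-fold at day 3. At day 1 the CD55 change was 0.98 in the authors' deposited log2 values and ended the call. CD46, a cofactor for cleavage of complement fragments, had 10.86, 11.17 and 11.28 and changed by 0.31 at day 1 and 0.42 at day 3. CD59, which blocks the membrane attack complex, was above background at day 1 alone, at 5.50, 5.88 and 5.22 over the days. In the annotation CD55 and CD46 lie on either side of the complement receptor genes CR2 and CR1, which were above background on no array. CR2 was just short of the limit at day 0, with an intensity of 70.2 and a detection p-value of 0.01019. Its intensities were 27.6 at day 1 and 37.0 at day 3.

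Adhesion molecules gave 0 calls in either comparison with day 0, of 5 measured at day 1 and 6 at day 3. Over all measured genes 9.19% were higher and 7.98% lower at day 1, and 4.95% and 2.13% at day 3. With so few genes, 0 calls does not set this role apart. CD44, the hyaluronan receptor, came closest, with signals of 10.88 at day 0, 11.88 at day 1 and 11.83 at day 3 and changes of 1.00 after rounding, which did not reach the rule, and 0.95. The other CD44 probe had 6.27, 8.15 and 8.34 and was 3.69-fold higher at day 1 and 4.20-fold higher at day 3. Both CD44 probes were higher on the later days than at day 0, by unequal amounts. CD47, the ligand of SIRPA, had 9.73, 9.23 and 9.55 and changed by -0.50 at day 1 and -0.18 at day 3. Over the same days its receptor gene SIRPA, no member here, had 5.75, 11.55 and 10.38. CD99, an adhesion molecule of leukocytes, had 7.64, 6.86 and 7.73, a change of -0.79 at day 1 and 0.09 at day 3. The sialomucin CD164 had 10.07, 10.06 and 10.49. CD109 and CD24 lay near the detection limit, between 5.59 and 6.12 for CD109 and between 4.92 and 5.78 for CD24.

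**Figure D4:**
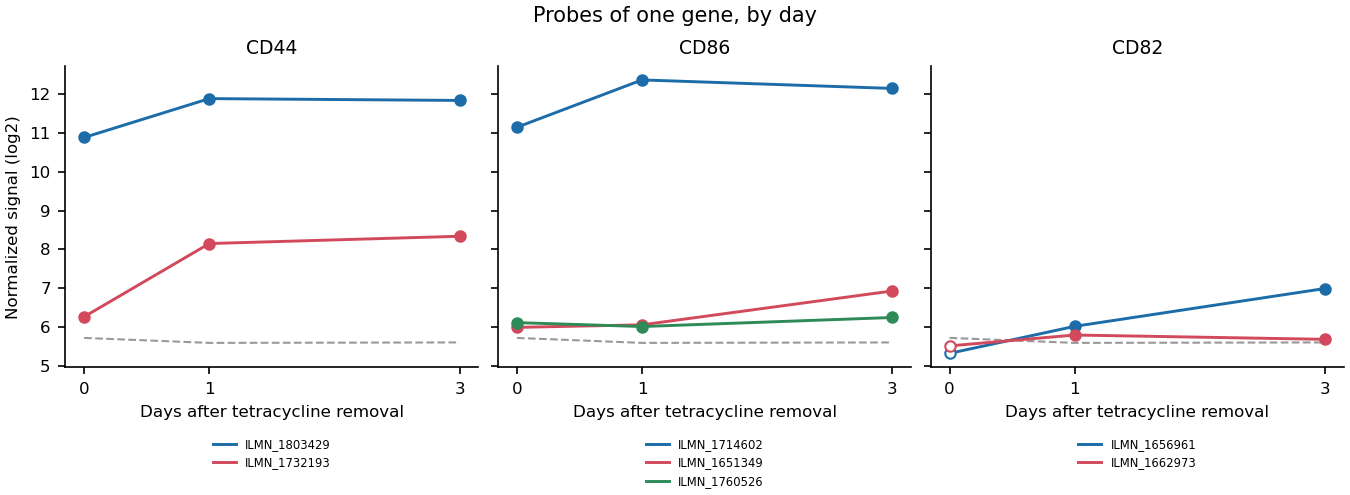
Normalized log2 signal by day of every probe above background on at least 1 array for CD44, CD86 and CD82, with 1 array per day. Filled points were above background and the dashed line is the lowest signal above background. Both CD44 probes are higher at day 1 and day 3 than at day 0, while for CD86 and CD82 the probes move by different amounts and at different days.

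Of the 73 members 13 had more than 1 probe. CD86 had 3 probes above background on all arrays, and they disagreed. The second had signals of 6.0 at day 0, 6.06 at day 1 and 6.93 at day 3, and the third 6.12, 6.02 and 6.25. The rise of CD86 at day 1 therefore rests on its brightest probe, and the mean over the 3 probes was 0.39 on the log2 scale. Averaged over probes, the change of CD82 at day 3 was 0.92, and that of CD44 was 1.44 at day 1 and 1.51 at day 3. The sources used here do not say which transcripts each probe reads.

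The remaining members were few and dim. CD72, an inhibitory co-receptor of B cells, had 4.86 at day 0, 5.90 at day 1 and 5.57 at day 3 and was above background at day 1 alone. Its bound at day 1 was 1.13-fold, so it did not pass. CD1C, which presents lipid antigens, had 4.94, 6.05 and 5.75, with a bound of 1.25-fold at day 1. CD1D and CD1E, of the same family, stayed between 5.49 and 5.81. CD320, the receptor for transcobalamin-bound vitamin B12, was above background at day 0 alone, with 6.48, 5.21 and 5.49. It was at least 1.84-fold lower at day 1 and at least 1.83-fold lower at day 3, the nearest that any member came to a fall against day 0. Of 15 B cell surface genes named otherwise, 2 were measured. FCRL3, an Fc receptor-like gene, fell at day 1, with 10.07, 8.58 and 9.58 over the days, and FCER2, the low affinity IgE receptor, had 6.25, 5.51 and 5.77. MS4A1, which encodes the B cell antigen CD20, was above background on no array. Of 26 integrin subunit genes 14 were measured at day 1, where 1, ITGAM, rose and 0 fell. For 7 of the 14, ITGAM among them, only the day 1 array was above background, so they could only differ upwards. Of the 7 above background on both arrays 0 rose and 0 fell, with a median change of 0.03. At day 3, of 9 measured, ITGAM and ITGB2 rose from below the detection limit and 0 fell, and the median over the 7 above background on both arrays was -0.14. ITGAM and ITGB2, which pair as a complement receptor of myeloid cells, had 5.45, 7.92 and 7.36 and 4.92, 6.38 and 7.28 at day 0, day 1 and day 3. Of 16 Siglec, LIR and related inhibitory receptor genes 15 were above background on no array, and the exception was SIRPA.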

How the data were processed

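RNA of an established cell line, 1 sample per day, was read on Illumina arrays. The submitters' processing notes name BeadStudio 3.3.7. The deposited intensities are linear and not normalized, and a detection p-value is deposited beside each, per the file headers. The authors' deposited log2 values equal log2 intensities scaled by each array's 75th percentile and centred on the median of each probe, to within 1e-05, so they hold differences between days and no levels. Here the intensities were background corrected (normexp, background inferred from detection p-values, offset of 16) and quantile normalized with limma 3.58.1 in R 4.3.3. The rest ran in Python 3.11.15 with pandas 2.3.3, numpy 2.4.6 and matplotlib 3.10.9. The offset draws changes of dim probes toward 0.

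Platform symbols chose the members. Names were updated through RefSeq: 24089 probes by gene ID, 50 by accession, and 164 kept the platform symbol, while 24398 had no symbol. The probe with the highest mean signal stood for a gene. Every member above background on an array was named, and from each related list up to 4 genes past the size rule. The size rule was run on simulated arrays with changes well past 2-fold, set only in probes well above background at day 0. Changes near 2-fold and probes that start below background were not tried there. On the real arrays 9 alternatives were run. The members and lists were chosen with earlier results of these data known. Protein sequences were not used here. Probes of the CD1 and CD300 families and of CD24 and IFITM1 can read near-identical relatives.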

Additional observations from a re-analysis of the deposited data

How the results depend on the processing

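Of the 8 members that rose at day 1, CD53, CD37, CD244, CD69, CD80 and CD83 passed the size rule under each of the 9 alternatives that could measure them. So did CD53, CD37, CD55, CD69, CD80 and CD83 at day 3 and CD244 between day 3 and day 1. These genes have 1 probe each, so alternatives that changed only the filter, the names or the averaging of probes could not end these calls. Only those that changed the background correction, the offset or the scaling, and the authors' deposited log2 values, could do so. CD55 at day 1 changed by 1.00 after rounding, just short, by 75th percentile scaling and by 0.98 in the authors' deposited log2 values. CD86 at day 1 was at 0.39 as a mean over probes. CD82 at day 3 was at 0.92 as a mean over probes and, with an offset of 50, at 1.12 with a bound under 2-fold. The count of members lower at day 1 was 1 in place of 0 without the detection filter and with that filter at 0.05, and that member was CD320. The count of members higher at day 3 was 4 in place of 7 over genes above background on all 3 arrays, which leaves out CD53, CD37 and CD82 by construction. With no detection filter CD84, CD1C and CD72 also passed at day 1, and CD84 at day 3. CD84 passed at day 1 with the filter at 0.05 too. As a mean over probes CD44 passed at day 1, at 1.44, and at day 3, at 1.51. The counts of members higher therefore stayed at 8 and 7 in that setting, with CD44 in place of CD86 at day 1 and of CD82 at day 3. By 75th percentile scaling the median over genes above background in both samples moved to -0.18 at day 1, against -0.09, and to -0.20 at day 3, against -0.08, and the genes lower at day 3 over the array were 363, against 196, and 97 with an offset of 50. No value changed sign among the calls. No paired analysis was possible because each day has 1 array. A slide block could not be fitted for the same reason. Signal over background limits 11 of the 29 members, which lie within 1.5 times the detection limit.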

Other observations

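The genes next to the 9 members that passed the size rule were looked up by their order in the RefSeq annotation of GRCh38.p14, a comparison chosen after the members' values were seen. Of 18 protein-coding neighbours 17 had a named probe, and 6 of these were measured at day 1. ILDR1, next to CD86, and SLC6A16, next to CD37, rose at day 1, and TIMMDC1, next to CD80, fell. These are 2 higher and 1 lower of only 6 genes, where 9.19% of 9311 measured genes were higher and 7.98% lower. ILDR1 had log2 signals of 7.48 at day 0, 9.60 at day 1 and 9.40 at day 3, a change of 2.12 at day 1 that exceeds the 1.22 of CD86, and it stayed past the rule at day 3. SLC6A16 had 4.87, 7.06 and 6.07 over the same days and was below the detection limit at day 0, so it could only differ upwards from day 0. Neighbours of CD53, CD244 and CD82 were not above background in either comparison with day 0. CLECL1, next to CD69, had 9.88, 8.96 and 9.94, and did not pass the rule where CD69 did.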
